A study of Mus musculus with 79 samples.

Results

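The receptor by region interaction in the mouse striatum was examined in 60 of the 79 libraries of the series, those whose labels name dorsal or ventral striatum together with a dopamine receptor. Each library held ribosome-bound mRNA purified by bacTRAP, in which a bacterial artificial chromosome (BAC) transgene places an eGFP tag on the ribosomal protein L10a in the cells that use a chosen promoter, and the tagged ribosomes are pulled down with their mRNA. The promoter was that of the D1a or the D2 dopamine receptor gene, the mice were heterozygous for the transgene on a C57BL/6J background, and every library pooled tissue of 3 mice with both sexes present; their age is not given in the sources used here. There were 15 libraries of D1 and 16 of D2 neurons from dorsal striatum, and 15 of D1 and 14 of D2 neurons from ventral striatum, the ventral tissue being punched from the nucleus accumbens. All mice carried a tagging transgene and none had a treatment named in the labels. The question was whether the difference in gene expression between D1 and D2 neurons was the same in both regions, and which kinds of genes made it differ.

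Striatal projection neurons are GABAergic neurons that fall into a pair of classes. Neurons of the direct pathway carry the D1 receptor, which stimulates cAMP synthesis, and make substance P and dynorphin. Neurons of the indirect pathway carry the D2 receptor, which inhibits cAMP synthesis, together with a stimulatory adenosine receptor, and make enkephalin. The dorsal striatum is known for its part in movement and habit and the ventral striatum for its part in reward. The D2 promoter is also used by cholinergic interneurons, so D2 libraries are not of projection neurons alone.

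Reads in genes ran from 7.35 to 30.8 M per library (group medians of 16.3 M in D1 dorsal, 20.3 M in D2 dorsal, 16.5 M in D1 ventral and 21.8 M in D2 ventral), and 1 read was worth 0.0124 to 0.0466 CPM (the authors' scaled read counts). The summed level of 6 genes of all striatal projection neurons was at least 1458 CPM in every library. The summed level of 5 genes of D1 projection neurons (Drd1a, Tac1, Pdyn, Isl1, Eya1) ran from 485 to 836 CPM in D1 libraries and from 19.7 to 98.8 CPM in D2 libraries, without overlap. The summed level of 5 genes of D2 projection neurons (Drd2, Adora2a, Penk, Gpr6, Sp9) ran from 1545 to 4525 CPM in D2 libraries and from 40.1 to 249 CPM in D1 libraries, also without overlap. Each library thus had the markers of its label. Within the D2 libraries, replicate 1 of dorsal striatum was highest in the D1 genes (98.8 CPM) and replicate 2 of ventral striatum in cortical genes (66.6 CPM, against at most 27.9 CPM in other D2 libraries). Library names carry a letter code of unstated meaning that was uneven over the groups: EM was the code of 11 of 15, 11 of 15, 8 of 16 and 8 of 14 libraries of D1 dorsal, D1 ventral, D2 dorsal and D2 ventral striatum, and OdP of 0, 1, 8 and 5.

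The interaction was the D1 minus D2 difference in dorsal striatum minus the same difference in ventral striatum, on log2(CPM + 0.5). It equals the dorsal minus ventral difference in D1 neurons minus that in D2 neurons, so a positive value means that a gene is relatively more dorsal in D1 than in D2 neurons, and a negative value that it is relatively more dorsal in D2 neurons. Of 11873 genes tested with limma, 313 (2.64%) had an adjusted p under 0.05 and are called. The estimate was positive for 229 of them (1.93% of genes tested) and negative for 84 (0.707%), and 111 (0.935%) also reached a 2-fold difference, 86 positive and 25 negative. Over all genes tested the median interaction was 0.01. When CPM were rescaled to the reads in genes the called genes were 191 positive and 119 negative, and after quantile normalization 213 and 139, so the split between the directions depends on scaling. In EM libraries alone, 191 positive and 43 negative genes were called, 164 of them among the 313. With dorsal and ventral libraries of adjacent library numbers taken as a block, 472 positive and 217 negative genes were called, the 313 among them. Leaving out D2 dorsal replicate 1 gave 222 positive and 82 negative genes, and leaving out D2 ventral replicate 2 gave 207 and 83.

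The libraries were pools of mice, and the labels do not state which pools share animals, so p-values measure the spread between pools. Cortical excitatory neuron genes (Slc17a7, Neurod6, Neurod2, Tbr1, Emx1) summed to 24 to 108 CPM in D1 dorsal, 13.8 to 92.7 CPM in D1 ventral, 0.928 to 27.9 CPM in D2 dorsal and 2.79 to 66.6 CPM in D2 ventral libraries. None of the 4 of them tested was called by limma or by edgeR (2 had an unadjusted p under 0.05), and their interaction estimates ran from 0.76 to 1.25. The 19 prefrontal cortex libraries of the same series also came from mice with the D1 tag, so their means are levels in cortical D1 receptor-expressing neurons and not in whole cortex. They had a higher mean than every striatal group for 133 of the 229 positive genes (58.1%), for 7 of the 84 negative genes (8.33%) and for 27.8% of all genes tested. The part of cortical RNA in the positive interactions was not tested, and the cortical mean is given beside each positive gene below whose levels are printed.

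**Figure D1:**
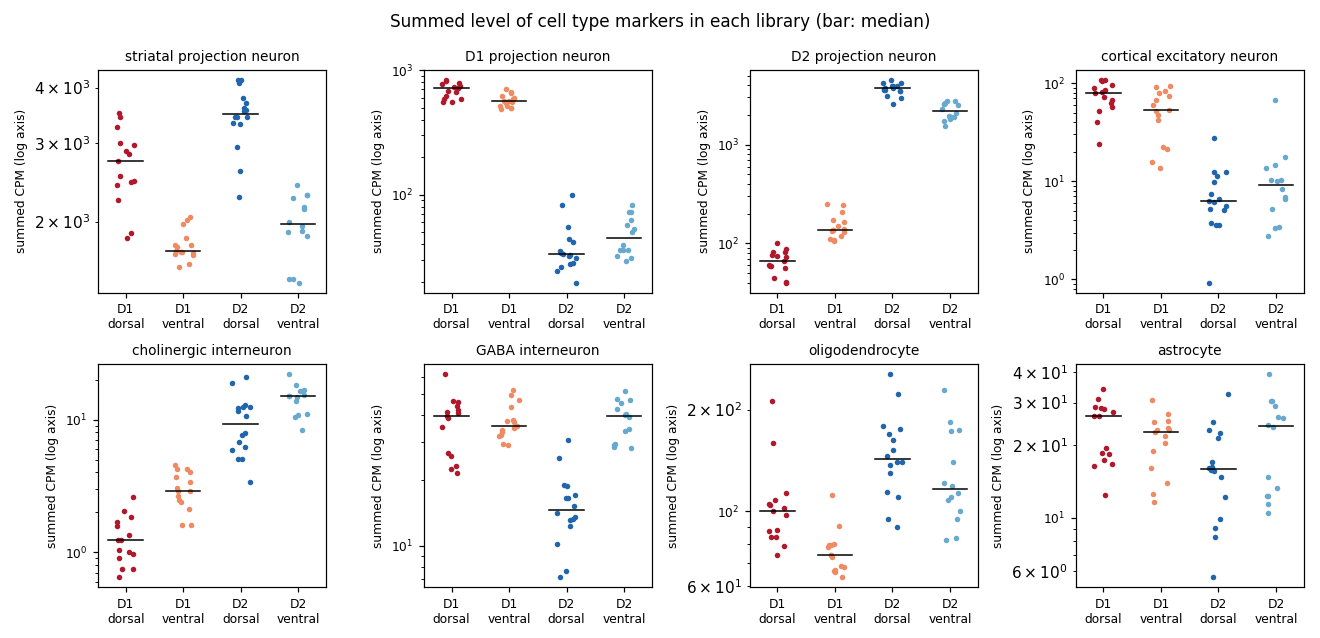
Summed CPM of marker genes in each of the 60 libraries, on a log axis, for 8 cell types, with 1 point per library and a bar at the group median. D1 and D2 projection neuron genes separate the libraries by receptor (medians of 714 and 562 CPM against 33.1 and 44.7 CPM for the D1 genes), cortical excitatory neuron genes are higher in D1 libraries (medians of 79.2 and 53.7 CPM against 6.24 and 9.23 CPM), and GABA interneuron genes are lowest in D2 dorsal libraries (median 14.7 CPM).

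The called genes fell into several patterns. Regional differences were called for 3345 genes (28.2%, of which 8.68% of genes tested were dorsal-higher and 19.5% ventral-higher) within D1 neurons and for 4162 genes (35.1%, with 9.34% dorsal-higher and 25.7% ventral-higher) within D2 neurons. Among the 229 positive genes, 103 had a called regional difference in D2 neurons only, all of them ventral-higher, and 46 had one in D1 neurons only, all of them dorsal-higher. A further 56 differed in the same direction in both classes, 9 of them dorsal-higher, and 24 differed in opposite directions, dorsal-higher in D1 and ventral-higher in D2 neurons. Among the 84 negative genes, 27 had a called regional difference in D1 neurons only, 22 in D2 neurons only, 23 in the same direction in both and 12 in opposite directions, ventral-higher in D1 and dorsal-higher in D2 neurons. Since genes were sorted by the sign of the interaction, opposite directions could take no other form. The directions of genes called in D1 only or in D2 only were largely set by that sign too. The most frequent pattern by group mean was a low D2 dorsal level, the group farthest from the other 3 for 106 positive genes. It was counted among called genes only, without a share over all genes tested.

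Seen from the receptor side, the D1 to D2 gap was the larger in dorsal striatum for 202 called genes and in ventral striatum for 111. Over all genes tested, receptor differences were called in 29.5% in dorsal and 45.4% in ventral striatum, which is another measure. For 28 of the 313 genes the receptor difference was called in both regions with opposite signs, so that the class with the higher level changed with the region. They included the potassium channel gene Kcnj3, the phosphodiesterase gene Pde8b and Vat1l, described below. Gap sizes and opposite signs were counted among called genes only, so there is no share over all genes tested to set beside them.

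**Figure D2:**
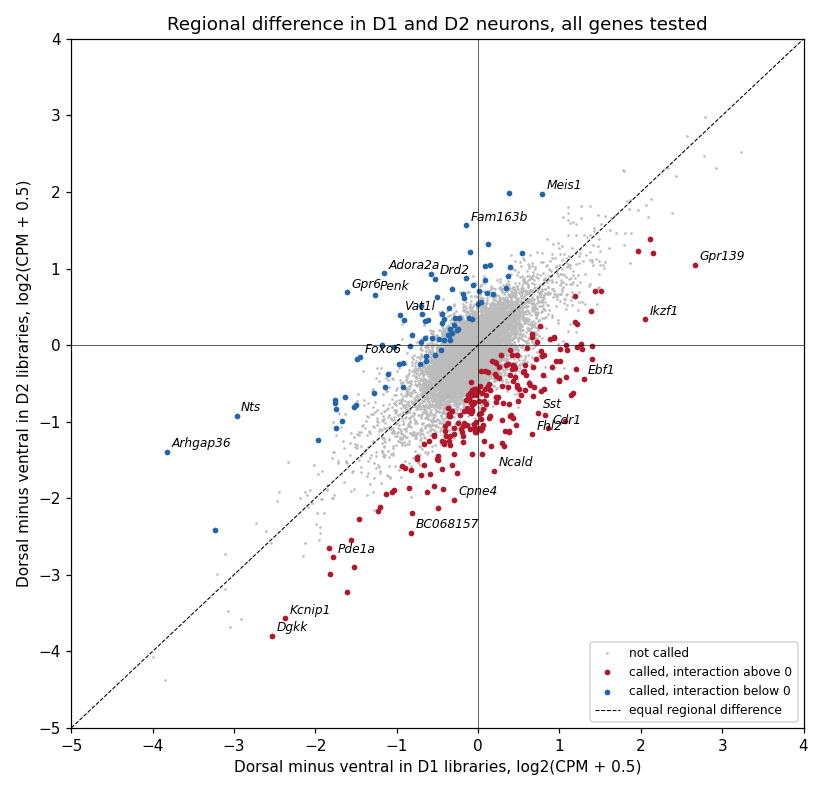
Dorsal minus ventral difference in D1 libraries (x axis) against the same difference in D2 libraries (y axis), both on log2(CPM + 0.5), for 11873 genes. Called genes are red where the interaction is positive (229, below the diagonal of equal regional difference) and blue where it is negative (84, above it). Gpr6, Adora2a, Penk and Drd2 lie in the upper left quadrant, ventral-higher in D1 and dorsal-higher in D2 libraries.

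The genes that define D2 neurons were among the clearest negative interactions. Drd2, Adora2a, Penk, Gpr6 and Sp9, the 5 genes of the D2 projection neuron list, were all called (5 of 5, against 0.707% of all genes), with a median estimate of -1.93. Each was dorsal-higher within D2 neurons and ventral-higher within D1 neurons, with both differences called. On the D1 projection neuron list, 1 of 5 genes (Eya1, positive) was called, against 1.93% of all genes called positive, with a median of 0.62. With edgeR 5 of the 5 D2 genes and 0 of the 5 D1 genes were called, while limma gave 4 of the D1 genes an unadjusted p under 0.05. The difference between the lists was not itself tested. Both lists were chosen with earlier results of these data known, and the genes of a list are not independent of each other.

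Gpr6 encodes a constitutively active receptor that raises cAMP. Its level in D2 neurons ran from 32.7 through a median of 41.7 to 58.9 CPM in dorsal and from 16.3 through 25.5 to 41.7 CPM in ventral libraries. In D1 neurons it ran from 0 through 0.979 to 1.75 CPM in dorsal and from 2.29 through 3.40 to 5.32 CPM in ventral libraries. All 15 D1 dorsal libraries lay below every D1 ventral library, and 8 of 16 D2 dorsal libraries lay above every D2 ventral library. Within D1 neurons the dorsal minus ventral difference was -1.61 and within D2 neurons 0.69, an interaction of -2.30 (SE 0.20, adjusted p = 9.15e-13). The mean in D2 libraries was 47.4 times that in D1 libraries in dorsal and 7.47 times in ventral striatum.

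Penk encodes the enkephalin precursor. It ran from 1203 through 2201 to 2996 CPM in D2 dorsal and from 985 through 1413 to 1818 CPM in D2 ventral libraries. In D1 neurons it ran from 28.3 through 53.2 to 79.7 CPM in dorsal and from 82.8 through 112 to 218 CPM in ventral libraries, without overlap. In D2 neurons 14 of 16 dorsal libraries lay above every ventral library. The interaction was -1.93 (SE 0.19, adjusted p = 1.66e-11), from a difference of -1.27 in D1 and 0.66 in D2 neurons.

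Adora2a encodes the stimulatory adenosine receptor of these neurons, which opposes D2 receptor signalling. It ran from 52.7 through 245 to 376 CPM in D2 dorsal and from 37 through 111 to 239 CPM in D2 ventral libraries, which overlapped. It ran from 1.54 through 3.15 to 10.3 CPM in D1 dorsal and from 5.29 through 7.80 to 11.8 CPM in D1 ventral libraries, where 13 of 15 dorsal libraries lay below every ventral library. The interaction was -2.09 (SE 0.32, adjusted p = 1.12e-05). Nt5e, the gene of the ecto-enzyme that makes adenosine from AMP outside the cell, had the same signs, with 0.684 ± 0.303 CPM in D1 dorsal (mean ± SD, n = 15), 1.70 ± 0.433 in D1 ventral (n = 15), 15.6 ± 2.77 in D2 dorsal (n = 16) and 12.4 ± 2.76 in D2 ventral libraries (n = 14), and an interaction of -1.25 (SE 0.17, adjusted p = 7.2e-07).

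Drd2 ran from 828 through 1146 to 1596 CPM in D2 dorsal and from 337 through 625 to 1184 CPM in D2 ventral libraries. It ran from 2.16 through 5.53 to 12.2 CPM in D1 dorsal and from 6.31 through 7.98 to 16.2 CPM in D1 ventral libraries. In D2 neurons 7 of 16 dorsal libraries lay above every ventral library, and in D1 neurons 10 of 15 dorsal libraries lay below every ventral library. The interaction was -1.40 (SE 0.22, adjusted p = 1.82e-05). Since its promoter drives the tag in D2 mice, its D1 to D2 gap is set by the design in both regions. Drd1a, the D1 receptor gene, ran from 163 through 232 to 288 CPM in D1 dorsal, from 139 through 156 to 173 CPM in D1 ventral, from 6.86 through 12.1 to 40.6 CPM in D2 dorsal and from 8.23 through 15.1 to 29.1 CPM in D2 ventral libraries. It was dorsal-higher in D1 neurons by 0.51 (adjusted p = 0.0104), with 14 of 15 dorsal libraries above every ventral library, but its interaction of 0.70 (SE 0.22) missed the threshold (adjusted p = 0.0748). It passed with a replicate block of adjacent library numbers (0.68, adjusted p = 0.0139) and when D2 dorsal replicate 1, the highest D2 library in D1 genes, was left out (0.80, adjusted p = 0.0124); it also passed without D2 dorsal replicate 2, D2 ventral replicate 4 or D2 ventral replicate 10 (adjusted p from 0.0234 to 0.0442), and in none of the other 14 alternatives.

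Ttc12 and Ankk1, neighbours of Drd2 on its chromosome, were chosen after their values were seen. Ttc12 had 137 ± 29.7 CPM in D2 dorsal and 84.6 ± 22.8 CPM in D2 ventral libraries (SD, n = 16 and 14), and at most 0.421 CPM in any D1 library. Its interaction of -0.70 was called (adjusted p = 0.00651), but the call was lost with a pseudocount of 0.1 and with edgeR (-0.76, adjusted p = 0.403). Ankk1 had an interaction of -0.58 that missed the threshold (adjusted p = 0.0584) but was called in 8 of 15 alternatives, at -0.94 with a pseudocount of 0.1 (adjusted p = 0.0351) and at -1.75 with edgeR (adjusted p = 0.0221). It had 14.2 ± 4.19 and 10.5 ± 3.35 CPM in D2 dorsal and D2 ventral libraries.

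In bulk samples such as these, fewer cells of a type and less RNA per cell cannot be told apart. The 5 D2 projection neuron genes summed to 40.1 to 101 CPM in D1 dorsal and to 107 to 249 CPM in D1 ventral libraries, so the D1 ventral libraries had more of the whole list. RNA of D2 neurons carried into D1 libraries and expression in D1 neurons cannot be told apart. Within D2 libraries alone the list ran from 2585 to 4525 CPM in dorsal and from 1545 to 2758 CPM in ventral striatum (medians of 3715 and 2198 CPM). The 6 genes of all striatal projection neurons were dorsal-higher too, with medians of 3489 and 1973 CPM in D2 dorsal and ventral libraries and of 2736 and 1721 CPM in D1 dorsal and ventral libraries. The summed level of 5 cholinergic interneuron genes ran from 3.39 through 9.23 to 21 CPM in D2 dorsal and from 8.3 through 15 to 22 CPM in D2 ventral libraries, and was at most 4.58 CPM in D1 libraries. The part of these lists in the regional differences of the D2 genes was not tested.

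**Figure D3:**
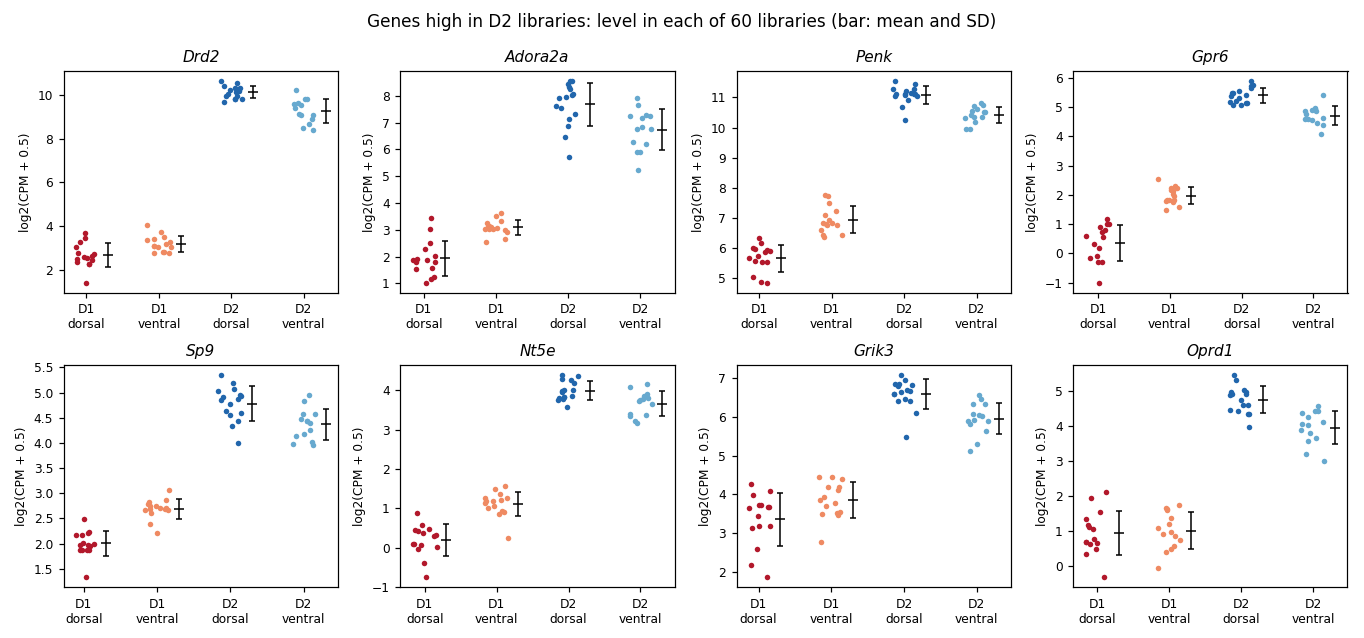
Level of 8 genes high in D2 libraries, as log2(CPM + 0.5), in each of the 60 libraries, with the mean and SD of each group beside the points. In D2 libraries the dorsal group mean exceeds the ventral one for all 8 genes, and in D1 libraries the ventral group mean exceeds the dorsal one, though for Oprd1 the D1 groups differ little (1.61 and 1.65 CPM).

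Further genes high in D2 neurons had negative interactions. Sp9, a zinc finger transcription factor gene needed for the development of D2 projection neurons, had 27.7 ± 6.32 CPM in D2 dorsal and 20.6 ± 4.62 CPM in D2 ventral libraries, against 3.57 ± 0.69 and 6.02 ± 0.839 CPM in D1 dorsal and ventral libraries (SD, n = 16, 14, 15 and 15). The interaction was -1.10 (adjusted p = 5.47e-07). Ptprm, which encodes an adhesive receptor tyrosine phosphatase, had 27.4 ± 4.98, 19.0 ± 2.96, 3.95 ± 1.88 and 6.32 ± 1.43 CPM in the same order and an interaction of -1.21 (adjusted p = 2.72e-05); 13 of 16 D2 dorsal libraries lay above every D2 ventral library. Nell1, which encodes a secreted protein and overlaps an antisense gene, had an interaction of -1.51 (adjusted p = 1.38e-05), from 10.9 ± 3.81 CPM in D2 dorsal and 5.58 ± 2.42 CPM in D2 ventral libraries.

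Among 28 glutamate receptor genes tested, only Grik3 was called (3.57%, against 2.64% of all genes). It encodes the kainate receptor subunit GluK3, and ran from 44.3 through 100.4 to 135 CPM in D2 dorsal and from 34.5 through 62.4 to 93.6 CPM in D2 ventral libraries. In D1 libraries it had 10.7 ± 4.45 CPM in dorsal and 14.7 ± 4.53 CPM in ventral striatum (SD, n = 15 each). Its interaction was -1.13 (SE 0.25, adjusted p = 0.00294), and -1.16 with an adjusted p of 0.0587 in EM libraries alone. Oprd1, the gene of the delta opioid receptor that enkephalin binds, was dorsal-higher in D2 neurons by 0.79 (27.2 ± 7.39 against 15.7 ± 4.80 CPM). Its interaction of -0.86 was at the threshold (adjusted p = 0.0497), and the call was lost in 8 of 15 alternatives (adjusted p = 0.138 with edgeR) and when any 1 of 41 of the 60 libraries was left out.

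Fam163b and Vat1l showed other negative shapes. Fam163b ran from 113 through 201 to 309 CPM in D2 dorsal and from 25.7 through 68.8 to 121 CPM in D2 ventral libraries, while the D1 groups overlapped (means of 54.9 and 60.5 CPM). In D2 neurons 12 of 16 dorsal libraries lay above every ventral library. The interaction was -1.71 (SE 0.23, adjusted p = 4.48e-07), from a regional difference of 1.56 within D2 and -0.15 within D1 neurons (adjusted p = 0.533). Vat1l ran from 36.7 through 47.3 to 79.5 CPM in D1 dorsal and from 86.4 through 97.0 to 119 CPM in D1 ventral libraries, without overlap. In D2 libraries it ran from 80.3 through 102 to 125 CPM in dorsal and from 53.5 through 73.9 to 118 CPM in ventral striatum. It was thus higher in D2 than in D1 neurons in dorsal striatum (D1 minus D2 of -1.01) and lower in ventral striatum (0.34), an interaction of -1.35 (SE 0.13, adjusted p = 1.66e-11).

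Neuropeptide genes moved in both directions. Of 19 listed, 9 passed the filter on low values and were tested. Of these 9, Sst and Npy were called positive and Penk and Nts negative (44.4% called, against 2.64% of all genes), with a median of 0.29. Nts encodes neurotensin, a peptide that acts on dopamine signalling. It ran from 0 through 0.379 to 2.33 CPM in D1 dorsal and from 3.40 through 7.04 to 11.8 CPM in D1 ventral libraries, without overlap. In D2 libraries it ran from 0.879 through 2.01 to 6.26 CPM in dorsal and from 1.37 through 5.10 to 10.3 CPM in ventral striatum, with wide overlap. The ventral excess was thus present in both classes but larger in D1 neurons (-2.97 against -0.92), an interaction of -2.05 (SE 0.33, adjusted p = 2.36e-05).

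Sst encodes somatostatin, which in the striatum marks a class of GABA interneurons that also make Npy. It ran from 7.53 through 16.5 to 34.5 CPM in D1 dorsal, from 2.96 through 9.40 to 30.3 CPM in D1 ventral, from 2.74 through 5.50 to 14.5 CPM in D2 dorsal and from 4.58 through 10.5 to 23.5 CPM in D2 ventral libraries. All groups overlapped, and D2 dorsal was the lowest. The interaction was 1.63 (SE 0.33, adjusted p = 0.00109), with differences of 0.74 in D1 and -0.89 in D2 neurons. Npy had the same signs at low level (medians of 2.93, 1.60, 0.772 and 1.42 CPM in that order) and an interaction of 1.23 (adjusted p = 0.00552). The 8 GABA interneuron genes include Sst and Npy. They summed to 7.18 to 30.6 CPM in D2 dorsal and 21.7 to 61.7 CPM in D1 dorsal libraries. The medians of the sum were 39.4 and 35.5 CPM in D1 dorsal and ventral and 14.7 and 39.6 CPM in D2 dorsal and ventral libraries. In D1 libraries the means of Sst, Npy, Pvalb and Vip were dorsal-higher, and those of Nos1, Lhx6, Calb2 and Th were ventral-higher. Of the 7 tested, only Sst and Npy were called, and estimates ran from -0.53 (Calb2) to 1.63 (Sst). Prefrontal cortex had means of 73.1 CPM for Sst and 22.3 CPM for Npy. The part of interneuron or cortical RNA in the differences of Sst and Npy was not tested. Pdyn, the dynorphin precursor gene, had an interaction estimate of 0 (adjusted p = 0.998) with the same ventral excess of 0.98 in both classes, and Cartpt one of 0.07 (adjusted p = 0.951).

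Of 19 neuropeptide receptor genes tested, Sstr2, a somatostatin receptor gene, was called positive (0.89, adjusted p = 0.0158) and Oprd1 negative (10.5% called, against 2.64% of all genes). The mu and kappa opioid receptor genes were not called, Oprm1 at -0.27 (adjusted p = 0.508) and Oprk1 at 0.16 (adjusted p = 0.843).

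Promoter letters are shown for Gpr6, Sst and Nts because they are peptide or receptor genes with strong interactions whose promoters hold a motif of the cAMP pathway or of AP-1, a factor of activity-dependent transcription. RefSeq promoters of GRCm38.p6, searched from 250 bases before to 50 bases after the start on both strands, were found for 8312 of the 11873 genes tested. The cAMP response element TGACGTCA was in 5.88% of 170 positive, 1.67% of 60 negative and 3.89% of tested genes. The AP-1 element TGACTCA was in 3.53%, 1.67% and 3.95%, and the E-box CAGCTG in 23.5%, 25.0% and 17.5%. Of all RefSeq promoters searched, 1.79%, 5.20% and 16.3% held them. The 250 bases before the start are printed 5′ to 3′ on the gene's strand. The cAMP response element or AP-1 element is in capitals (for Nts the reverse complement of the AP-1 letters). E-box letters, which the Nts promoter also holds, are left in lower case. The capitals begin 78 bases before the start in Gpr6 (chr10:41072291-41072540, minus strand), 48 bases before it in Sst (chr16:23890845-23891094, minus strand) and 207 bases before it in Nts (chr10:102490419-102490668, minus strand).
Gpr6: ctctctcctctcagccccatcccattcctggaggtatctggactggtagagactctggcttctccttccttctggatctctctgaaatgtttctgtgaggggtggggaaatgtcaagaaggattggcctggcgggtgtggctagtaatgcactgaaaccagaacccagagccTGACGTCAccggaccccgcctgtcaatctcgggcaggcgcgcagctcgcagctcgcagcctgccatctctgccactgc
Sst: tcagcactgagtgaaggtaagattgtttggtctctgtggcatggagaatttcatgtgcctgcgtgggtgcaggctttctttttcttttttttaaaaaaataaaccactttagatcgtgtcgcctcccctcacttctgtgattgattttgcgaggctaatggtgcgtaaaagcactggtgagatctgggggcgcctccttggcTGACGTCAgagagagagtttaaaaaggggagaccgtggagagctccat
Nts: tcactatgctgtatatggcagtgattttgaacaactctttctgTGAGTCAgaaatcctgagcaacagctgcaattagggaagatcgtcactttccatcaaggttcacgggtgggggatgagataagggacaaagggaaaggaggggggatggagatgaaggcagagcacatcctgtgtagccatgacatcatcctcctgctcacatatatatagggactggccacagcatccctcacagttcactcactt
A match is a description of letters, not of a bound site.

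Among 29 monoamine, adenosine, acetylcholine and cannabinoid receptor genes tested, 4 were called positive (Htr1a, Htr2a, Adra2c, Hrh2) and 3 negative (Drd2, Drd3, Adora2a), or 24.1% against 2.64% of all genes (1.93% positive and 0.707% negative), with a median of -0.23. Htr2a encodes the serotonin receptor coupled to phospholipase C. It ran from 9.58 through 19.1 to 23 CPM in D2 ventral and from 6.48 through 11.7 to 13.3 CPM in D2 dorsal libraries. In D1 libraries it ran from 4.55 through 8.32 to 11.8 CPM in dorsal and from 5.47 through 7.02 to 8.65 CPM in ventral striatum. D2 ventral libraries were thus the highest group, the regional difference was called in D2 neurons (-0.68) and not in D1 neurons (0.24, adjusted p = 0.11), and the interaction was 0.92 (SE 0.16, adjusted p = 0.00011). Its cortical mean was 16.9 CPM, between those of D2 dorsal and D2 ventral libraries (11 and 18.1 CPM). Adra2c, an alpha-2 adrenergic receptor gene, had medians of 13.6 and 10.4 CPM in D1 dorsal and ventral and of 4.00 and 7.28 CPM in D2 dorsal and ventral libraries, with an interaction of 1.02 (adjusted p = 0.00835) and a cortical mean of 3.68 CPM. Drd3, the gene of the D3 dopamine receptor, was highest in D1 ventral libraries (median 2.55 CPM); its interaction of -0.74 (adjusted p = 0.0348) was 0.69 with edgeR (adjusted p = 0.598), and it was the only called gene whose estimate changed sign in any of the 15 alternatives or 60 single-library removals.

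Of 53 G protein and cyclic nucleotide signalling genes, 5 were called positive and 1 negative (11.3% called, against 2.64% of all genes), with a median of 0.01. Gng2 encodes a G protein gamma subunit. It ran from 28.1 through 79.5 to 176 CPM in D1 dorsal, from 35.4 through 60 to 81.9 CPM in D1 ventral, from 5.36 through 10.5 to 28.9 CPM in D2 dorsal and from 12.7 through 29.7 to 59.3 CPM in D2 ventral libraries. Its regional difference was called within D2 neurons (-1.28) and not within D1 neurons (0.29, adjusted p = 0.297), with 12 of 16 D2 dorsal libraries below every D2 ventral library, and the interaction was 1.58 (SE 0.29, adjusted p = 0.00021); its cortical mean was 313 CPM. Gnai1, an inhibitory G protein alpha subunit gene, had an interaction of 0.81 (adjusted p = 0.00835) and Gnas, the stimulatory alpha subunit gene, one of 0.65 (adjusted p = 0.0261), both ventral-higher in both classes, and both calls were lost in EM libraries alone. The table lists a further gene over the Gnas locus with near-identical values, so reads there may be shared. Arpp19, a phosphatase inhibitor regulated by cAMP, had an interaction of 0.52 (adjusted p = 0.00687).

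A pair of phosphodiesterase genes differed in direction. Pde1a, the gene of a calmodulin-dependent phosphodiesterase, ran from 28.3 through 55.4 to 100.3 CPM in D1 dorsal and from 144 through 179 to 226 CPM in D1 ventral libraries, and from 5.30 through 10.9 to 23 CPM in D2 dorsal and from 45.3 through 75.4 to 124 CPM in D2 ventral libraries. Dorsal and ventral libraries did not overlap in either class, and the ventral excess was larger in D2 neurons (-2.77 against -1.78), an interaction of 0.99 (SE 0.21, adjusted p = 0.00171). The adjusted p was 0.106 in EM libraries alone and 0.127 without OdP libraries. Its cortical mean of 262 CPM was above every striatal group mean (at most 179 CPM). Pde8b, the gene of a cAMP-specific phosphodiesterase, differed little in size but with small spread: 78.2 ± 8.05 CPM in D1 dorsal, 99.1 ± 8.60 in D1 ventral, 90.0 ± 8.70 in D2 dorsal and 86.6 ± 11.8 in D2 ventral libraries (SD, n = 15, 15, 16 and 14). Its interaction was -0.40 (SE 0.09, adjusted p = 0.00363), and D1 minus D2 was -0.20 in dorsal and 0.20 in ventral striatum, each called. Gnal, the stimulatory alpha subunit gene of striatal neurons, was not called (-0.15, adjusted p = 0.767).

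Of 52 potassium channel genes 3 were called, all positive (Kcnj3, Kcnip1 and Kcnc2). That was 5.77%, against 2.64% of all genes called and 1.93% called positive, and the list's median was 0.10. Of 26 sodium, calcium and HCN channel genes and 20 GABA and glycine genes, limma and edgeR called none, with 5 and 4 at an unadjusted p under 0.05. Kcnj3 encodes the GIRK1 channel subunit that opens with inhibitory G protein signalling. It ran from 9.23 through 14.4 to 22.2 CPM in D1 dorsal, from 5.54 through 10.3 to 13.4 CPM in D1 ventral, from 5.21 through 8.91 to 13.8 CPM in D2 dorsal and from 7.72 through 13.7 to 33.2 CPM in D2 ventral libraries. Levels were thus high in D1 dorsal and D2 ventral libraries and low in the other groups, with overlap, and the interaction was 1.08 (SE 0.20, adjusted p = 0.000317). Its cortical mean of 50.1 CPM was above every striatal group mean (at most 14.9 CPM). Kcnip1, the gene of an auxiliary subunit of A-type potassium channels, was ventral-higher in both classes without overlap, by 2.37 in D1 and 3.57 in D2 neurons on the log2 scale, with means of 3.55 ± 1.99 and 19.3 ± 3.62 CPM in D1 dorsal and ventral and 1.75 ± 0.866 and 25.3 ± 6.86 CPM in D2 dorsal and ventral libraries. Its interaction was 1.20 (SE 0.22, adjusted p = 0.000301), and it overlaps several other genes. Its cortical mean was 30.9 CPM, above every striatal group mean.

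**Figure D4:**
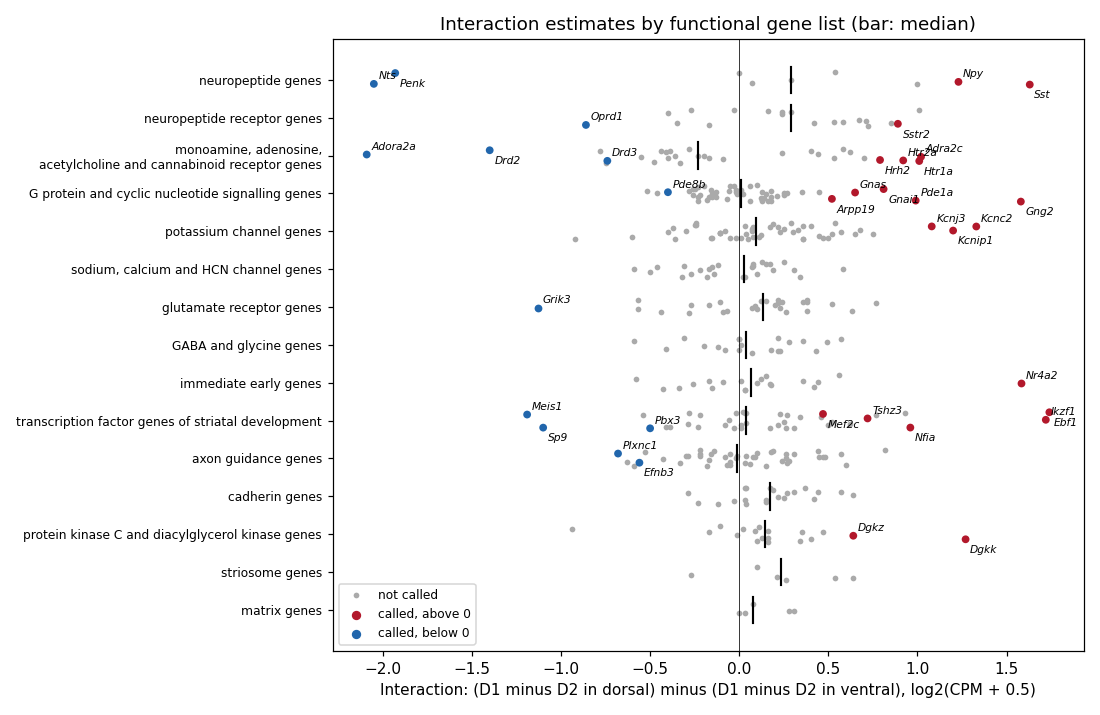
Interaction estimates (x axis, log2(CPM + 0.5) scale) of the tested genes on 15 functional lists, with 1 point per gene, called genes named and coloured by direction, and a bar at each list's median. The medians lie between -0.23 and 0.29, and called genes stand on both sides of 0 in the neuropeptide, neuropeptide receptor, monoamine receptor, G protein and transcription factor lists.

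Transcription factor genes of striatal development were called in 8 of 39 cases (20.5%, against 2.64% of all genes), 5 positive and 3 negative, with a median of 0.04. Ebf1 encodes a factor needed for the differentiation of D1 projection neurons. It ran from 15.9 through 27.6 to 44.1 CPM in D1 dorsal and from 6.53 through 12.2 to 20.7 CPM in D1 ventral libraries, where 14 of 15 dorsal libraries lay above every ventral library. In D2 libraries it stayed at or below 4.56 CPM, and its mean was 0.539 CPM in prefrontal cortex. The interaction was 1.74 (SE 0.28, adjusted p = 2.01e-05), from 1.30 in D1 neurons and -0.44 in D2 neurons (adjusted p = 0.0736).

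Ikzf1, the gene of the zinc finger factor Ikaros, also stood out in D1 dorsal libraries. It ran there from 1.47 through 5.30 to 9.01 CPM, with medians of 0.854 CPM in D1 ventral, 0.431 in D2 dorsal and 0.217 in D2 ventral libraries, and 14 of 15 D1 dorsal libraries lay above every D1 ventral library. The interaction was 1.72 (SE 0.27, adjusted p = 1.82e-05); edgeR on recovered reads gave 1.66 with an adjusted p of 0.0655, and the cortical mean was 0.354 CPM. Tshz3, Mef2c and Nfia, the other positive factors on the list, had estimates of 0.72, 0.47 and 0.96. Meis1, a homeobox factor gene, was dorsal-higher in both classes and more so in D2 neurons (1.98 against 0.79), with medians of 12.7 and 2.79 CPM in D2 dorsal and ventral and 4.91 and 2.50 CPM in D1 dorsal and ventral libraries. Its interaction was -1.19 (adjusted p = 7.78e-05). Pbx3, the gene of a homeobox partner of Meis factors, had -0.50 (adjusted p = 0.045) and was not called in 6 of 15 alternatives.

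Sox5, outside the fixed list, encodes a factor known from cortical projection neurons. It had 6.09 ± 1.92 CPM in D1 dorsal, 3.82 ± 1.69 in D1 ventral, 1.56 ± 0.712 in D2 dorsal and 2.9 ± 1.56 in D2 ventral libraries (SD), and 34.3 CPM in prefrontal cortex. Its interaction was 1.34 (adjusted p = 0.00291), with opposite regional differences of 0.68 and -0.66. Foxo6, a forkhead factor gene, was low in D1 dorsal libraries alone (4.26 ± 1.72 CPM, against group means of 11.9 to 18 CPM), with an interaction of -1.29 (adjusted p = 0.00393) that was -0.85 in EM libraries alone (adjusted p = 0.269). The Foxo6 call was also lost without OdP libraries. Of 20 immediate early genes, Nr4a2 alone was called (5.0% of the list, against 2.64% of all genes), at 1.58 (SE 0.45, adjusted p = 0.0365). It had 44.5 ± 16.7 and 17.6 ± 9.12 CPM in D1 dorsal and ventral and 3.77 ± 2.36 and 4.92 ± 4.86 CPM in D2 dorsal and ventral libraries. The call held in 12 of 15 alternatives and was lost when any 1 of 12 libraries was left out. The cortical mean of Nr4a2 was 97.7 CPM.

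Gpr139 and Arhgap36 were each highest in D1 neurons of 1 region. Gpr139 encodes an orphan G protein-coupled receptor. It ran from 1.82 through 5.65 to 12.1 CPM in D1 dorsal libraries, all 15 of which lay above every D1 ventral library (at most 0.877 CPM), and from 0.152 through 1.09 to 1.68 CPM in D2 dorsal libraries. The interaction was 1.61 (adjusted p = 1.97e-05), but 1.55 with an adjusted p of 0.125 in edgeR, and the cortical mean was 0.341 CPM. Arhgap36 encodes a known inhibitor of protein kinase A. It ran from 6.80 through 9.74 to 13.2 CPM in D1 ventral and from 0.0982 through 0.971 to 2.41 CPM in D2 ventral libraries, and was at most 0.703 CPM in any dorsal library. The ventral excess was 3.83 in D1 and 1.39 in D2 neurons on the log2(CPM + 0.5) scale, an interaction of -2.44 (SE 0.24, adjusted p = 1.66e-11). The ventral mean was 37.9 times the dorsal mean in D1 and 24.8 times in D2 neurons. The D2 dorsal libraries held 42 reads of it in all and 11 of 16 held none, and edgeR, which works on ratios of counts, gave -0.89 (adjusted p = 0.623).

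Several positive genes had their lowest level in D2 dorsal libraries. Cpne4 encodes a copine, a calcium-dependent membrane-binding protein. It ran from 3.11 through 4.64 to 8.79 CPM in D2 dorsal libraries and from 16.3 through 20.3 to 31.4 CPM in D2 ventral libraries, without overlap. In D1 libraries it ran from 9.44 through 19.3 to 27.5 CPM in dorsal and from 16.3 through 24.9 to 30.1 CPM in ventral striatum. Receptor classes differed in dorsal (1.82) and not detectably in ventral striatum (0.10, adjusted p = 0.561), and the interaction was 1.72 (SE 0.18, adjusted p = 2.69e-10). The gene BC068157 was also lowest in D2 dorsal libraries (2.89 ± 1.28 CPM, SD, n = 16, against means of 12.9 CPM in D1 dorsal, 22.6 CPM in D1 ventral and 17.8 CPM in D2 ventral libraries), with all 16 of them below every D2 ventral library. It was ventral-higher in D1 neurons too (-0.83, adjusted p = 2.02e-05, where Cpne4 had -0.30 with an adjusted p of 0.0726), with 12 of 15 D1 dorsal libraries below every D1 ventral library, and the receptor classes differed in ventral striatum (0.39, adjusted p = 0.0378). Its interaction was 1.62 (adjusted p = 4.48e-07). The cortical means were 71.0 CPM for Cpne4 and 51.6 CPM for BC068157.

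Fhl2, a LIM-domain adaptor gene, ran from 0.0317 through 0.513 to 1.58 CPM in D2 dorsal, from 1.03 through 1.44 to 6.32 CPM in D2 ventral, from 4.55 through 7.59 to 11.2 CPM in D1 dorsal and from 2.68 through 4.79 to 7.02 CPM in D1 ventral libraries. It was dorsal-higher in D1 and ventral-higher in D2 neurons, with 15 of 16 D2 dorsal libraries below every D2 ventral library, and an interaction of 1.83 (SE 0.23, adjusted p = 1.11e-07). Ncald (neurocalcin delta, a calcium sensor; interaction 1.83, adjusted p = 0.000455) and Cadps2 (a priming factor for dense-core vesicles; 1.64, adjusted p = 0.000969) had their lowest mean in D2 dorsal libraries, at 8.15 ± 5.69 and 2.94 ± 2.71 CPM. Nrn1 (neuritin, a neurite growth protein; 1.80, adjusted p = 0.00651) and C130074G19Rik (1.79, adjusted p = 0.00113) had their highest striatal mean in D1 dorsal libraries, at 11.2 ± 5.68 and 7.83 ± 3.73 CPM. The cortical means of these 5 genes were 21.1, 326, 76.3, 84.7 and 51.7 CPM in the order Fhl2, Ncald, Cadps2, Nrn1 and C130074G19Rik, each above every striatal group mean.

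Cdr1 was the positive gene with the largest estimate at a mean of at least 5 CPM, and varied most. It ran from 224 through 787 to 5290.2 CPM in D2 ventral, from 213 through 372 to 3782 CPM in D2 dorsal, from 69.7 through 150.0 to 813 CPM in D1 dorsal and from 50.2 through 73.9 to 316 CPM in D1 ventral libraries. All groups overlapped with a neighbouring group. The interaction was 1.94 (SE 0.50, adjusted p = 0.016), and 2.33 with an adjusted p of 0.0717 in EM libraries alone. Its cortical mean of 419 CPM was below the mean of both D2 groups. A non-coding RNA comes from the opposite strand of the locus, and since the counting is not stated to use strand the values may hold reads of either.

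Eya1, a D1 projection neuron gene for a transcriptional coactivator, ran from 186 through 229 to 317 CPM in D1 dorsal and from 154 through 183 to 236 CPM in D1 ventral libraries. In D2 libraries it ran from 0.413 through 1.13 to 21.4 CPM in dorsal and from 1.24 through 3.42 to 15.4 CPM in ventral striatum, with overlap. Its interaction of 1.46 (SE 0.34, adjusted p = 0.00619) came from the low D2 levels (-1.13 between dorsal and ventral, against 0.33 in D1 neurons), and was 1.15 in edgeR (adjusted p = 0.196) and 1.43 in EM libraries alone (adjusted p = 0.106). Its cortical mean was 25.4 CPM, above both D2 means. Tac1, the substance P precursor gene, and Isl1, a LIM-homeobox gene, were not called, at 0.54 (adjusted p = 0.227) and 0.62 (adjusted p = 0.143).

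**Figure D5:**
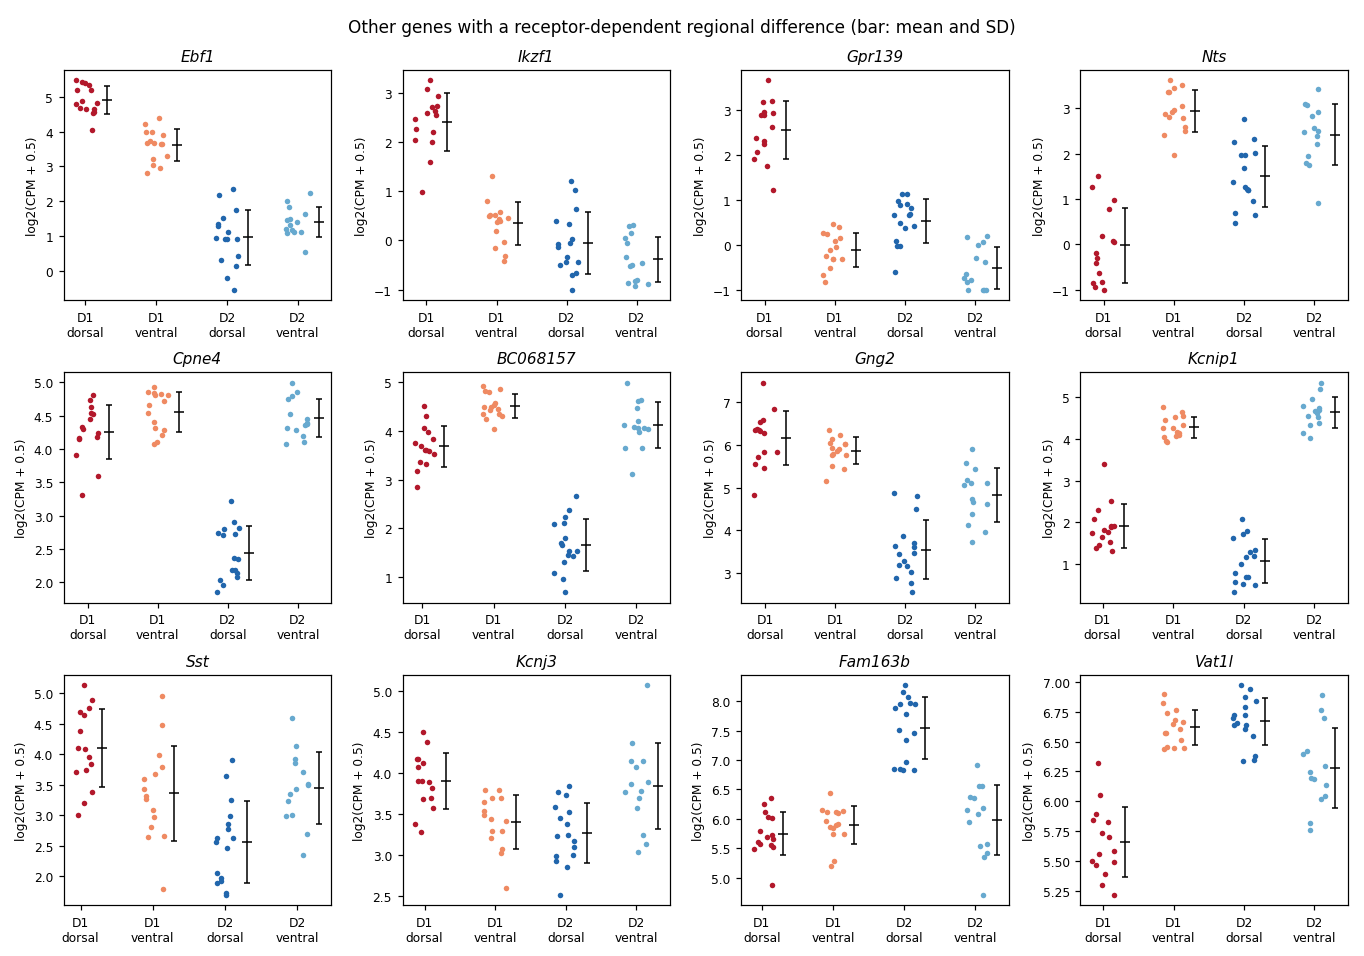
Level of 12 further called genes, as log2(CPM + 0.5), in each of the 60 libraries, with the mean and SD of each group beside the points. Ebf1, Ikzf1 and Gpr139 are high in D1 dorsal libraries, Cpne4, BC068157 and Gng2 are low in D2 dorsal libraries, Kcnj3 is high in D1 dorsal and D2 ventral libraries, and Vat1l is low in D1 dorsal libraries, while Kcnip1 differs by region in both classes.

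Of 45 axon guidance genes 2 were called, both negative (4.44%, against 2.64% of all genes called and 0.707% called negative), and edgeR called 4. Plxnc1, the gene of a semaphorin receptor, had -0.68 (adjusted p = 0.0132). Its call was lost in EM libraries alone (adjusted p = 0.289) and without OdP libraries. Efnb3, an ephrin ligand gene, had -0.56 (adjusted p = 0.0436). It was called in 10 of 15 alternatives, and the call was lost when any 1 of 33 libraries was left out. Plxnc1 was ventral-higher in both classes and most so in D1 neurons, with 16.8 ± 4.33 CPM in D1 ventral and 11 ± 3.03 CPM in D2 ventral libraries against 4.91 ± 1.12 and 5.22 ± 1.09 CPM in D1 and D2 dorsal libraries. Of 18 protein kinase C and diacylglycerol kinase genes, Dgkk and Dgkz were called (11.1%, against 2.64% of all genes). Dgkk, a kinase that removes diacylglycerol, had 26.5 ± 15.9 CPM in D2 ventral, 9.30 ± 3.93 in D1 ventral, 1.5 ± 1.07 in D2 dorsal and 1.23 ± 0.749 in D1 dorsal libraries. Its interaction was 1.27 (adjusted p = 0.0198, and 0.138 with edgeR). Dgkz had 0.64 (adjusted p = 0.0461). The Dgkz call held in 9 of 15 alternatives and was lost when any 1 of 44 libraries was left out. The cortical mean was 0.225 CPM for Dgkk, and for Dgkz 102 CPM, above every striatal group mean (at most 51.2 CPM). None of 21 cadherin, 6 striosome and 5 matrix genes and none of the 6 genes of all striatal projection neurons was called by limma (5, 1, 0 and 1 had an unadjusted p under 0.05, and edgeR called 1 cadherin gene and none of the others). The medians of these lists were 0.17, 0.23, 0.08 and -0.14.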

How the data were processed

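Ribosome-bound polyA mRNA was read as 50-base read pairs after cDNA amplification, per the labels' protocols, with no molecular identifiers described, so depth bounds counting error only. The authors deposited a table of CPM, the reads of each gene divided by a library total, for 25899 gene symbols in 79 libraries; all columns were matched to samples by name. Per the submitters' processing notes, Trim Galore 0.4.2, cutadapt 1.9.1, FastQC, HISAT2 and the build GRCm38 were used; the counting program, the strand setting and any filter are not given in the sources used here. The deposited CPM were whole multiples of a step in each column, and dividing by it gave whole reads for 100% of values above 0 (tolerance 0.01). Reads in genes were 31.1 to 40.2% of the total to which the authors scaled.

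Genes with at least 1 CPM in at least 14 of the 60 libraries (the size of the smallest group) entered the fit. A model of 4 group means on log2(CPM + 0.5) was fitted with lmFit of limma 3.58.1 under R 4.3.3, and eBayes was run with trend. The fit was also run on simulated counts, with changes placed in D2 ventral libraries alone and no other difference between groups. That setting lacks the receptor and region differences of these libraries, and no result above rests on it. All adjusted p-values are limma's, with Benjamini-Hochberg adjustment over all 11873 genes, two-sided and called under 0.05, unless edgeR 4.0.16 (quasi-likelihood, TMM, on the recovered reads) is named. The added 0.5 shrinks each change of a gene with low CPM, so an interaction can come out smaller or larger than a difference of ratios. Within a gene, CPM compare libraries and not genes. The 15 alternatives varied the pseudocount, filter, scaling, libraries, covariates, independence of libraries and test, and each of the 60 libraries was left out in turn.

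Replicate numbers follow accession order and pair nothing. Named genes were the 12 most positive and 12 most negative estimates of called genes that reached a mean of 5 CPM in some group, the 6 with the largest opposite regional differences, up to 3 called genes of smallest p per list at the same level, and Drd1a and Drd2, 40 in all. The members and lists were chosen with earlier results of these data known; 15 function lists held 451 entries, 4 of all listed genes being absent from the table. Marker lists with no tested gene (endothelial, ependymal and blood) gave no estimate, and 1 further gene chosen for the cortical marker list is not reported here and entered no sum. In RefSeq's GRCm38.p6 list 23028 symbols (88.9%) were current or synonyms. Among named genes, Ncald, Fhl2, Nrn1, C130074G19Rik, Ikzf1, Cadps2, Nell1, Drd2, Vat1l, Foxo6, Ptprm, Sox5, Oprd1, Pde1a, Pde8b, Kcnip1, Grik3, Nr4a2 and Dgkz overlap another RefSeq gene, whose reads could be shared.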

Additional observations from a re-analysis of the deposited data

Results flagged for a closer look

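The test of the difference itself, the receptor by region interaction, picked out 313 genes whose regional difference was not the same in D1 and D2 neurons. Of the 40 named genes 39 are among them, because the naming rule drew all but Drd1a and Drd2 from called genes. The values are interaction estimates on log2(CPM + 0.5).

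Among genes of receptors and peptides, the estimate was -2.30 for Gpr6, -2.09 for Adora2a, -1.40 for Drd2, -0.86 for Oprd1, -1.13 for Grik3, -1.93 for Penk and -2.05 for Nts, and it was 1.63 for Sst, 1.61 for Gpr139 and 0.92 for Htr2a. Among transcription factor genes it was 1.74 for Ebf1, 1.72 for Ikzf1, 1.34 for Sox5 and 1.58 for Nr4a2, against -1.10 for Sp9 and -1.29 for Foxo6. Among genes of signalling enzymes and G proteins it was 1.58 for Gng2, 0.99 for Pde1a, 1.27 for Dgkk and 0.64 for Dgkz, against -0.40 for Pde8b, -1.25 for Nt5e, -1.21 for Ptprm and -2.44 for Arhgap36.

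Among genes of channels and calcium-binding proteins it was 1.20 for Kcnip1, 1.08 for Kcnj3, 1.83 for Ncald, 1.72 for Cpne4 and 1.64 for Cadps2. Among genes of guidance and growth proteins it was -0.68 for Plxnc1, -0.56 for Efnb3, -1.51 for Nell1 and 1.80 for Nrn1. For the remaining named genes it was 1.94 for Cdr1, 1.83 for Fhl2, 1.79 for C130074G19Rik, 1.62 for BC068157, -1.71 for Fam163b and -1.35 for Vat1l.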

How the results depend on the processing

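Every called gene that an alternative tested kept its direction in 14 of the 15 alternatives, and 312 of 313 kept it with edgeR; 126 were called in every alternative that tested them and 228 under every single-library removal. The number of called genes was 224 with a filter at 5 CPM (64 of them at least 2-fold, against 111), 234 in EM libraries alone (43 negative, against 84), 352 after quantile normalization (139 negative), 480 with the name code as a covariate (158 negative) and 689 with the block described next, and between 286 and 399 in the other 10 alternatives. Leaving out 1 library gave from 254 to 434 called genes, of which 180 to 300 were positive and 68 to 134 negative; the highest counts came without D2 dorsal replicate 6, whose removal moved the negative count by over 1.5 times. The labels do not state a pairing of libraries, though the names of a D1 dorsal and a D1 ventral library share a letter code and number. A replicate block of dorsal and ventral libraries with adjacent library numbers gave 689 called genes (472 positive, 217 negative), the 313 among them; the deviations of the 27 such pairs correlated at a median of 0.296 (from -0.306 to 0.67), against -0.0399 for other pairs. The cause of these shifts was not tested. Of the named genes' values in the 15 alternatives and in the 2 single-library removals that gave each gene its lowest and highest estimate, 636 kept their direction and side of the threshold, 40 lost the call and 2 gained it, both for Drd1a (0.68 with the block, adjusted p = 0.0139, and 0.80 without D2 dorsal replicate 1), and none reversed. Drd3 alone reversed among called genes (0.69 with edgeR). With edgeR 5 named genes lost their call: Arhgap36, Gpr139, Ikzf1, Dgkk and Oprd1.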

Other observations

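Called genes also included members of families that were on no fixed list; the families were picked after the values were seen and get no test (1.93% of all genes tested were called positive and 0.707% negative). All 3 cerebellin genes tested, which encode secreted organizers of synapses, were positive (Cbln1 1.39, Cbln2 1.13, Cbln4 1.38). Cbln4 had means of 2.97 CPM in D1 ventral and 4.84 CPM in D2 ventral libraries against 0.754 and 0.167 CPM in D1 and D2 dorsal libraries, while Cbln1 was highest in D1 dorsal libraries (3.06 CPM). Of 9 copine genes 4 were positive: Cpne4, Cpne6 (0.80), Cpne8 (0.69) and Cpne9 (0.95). Cpne6 was ventral-higher and Cpne9 dorsal-higher in both classes.

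Of 10 Sox genes Sox1 (1.16), Sox5 and Sox6 (1.24) were positive; Sox1 was ventral-higher in both classes, with 51.2 CPM in D1 ventral and 31.2 CPM in D2 ventral libraries against 14.7 and 3.65 CPM in D1 and D2 dorsal libraries. Of 10 neuronal calcium sensor genes Ncald, Kcnip1 and Vsnl1 (1.45) were positive, of 3 neuronal Elav-like RNA-binding protein genes Elavl2 (1.13) and Elavl4 (0.94), and of 3 Lypd genes Lypd6 (1.35) and Lypd6b (1.73). Of 17 sterol synthesis genes 2 were positive, Hmgcs1 (0.80) and Idi1 (1.09). None of the 7 Meis and Pbx genes had an estimate above 0, with a median of -0.38, and Meis1 and Pbx3 were called. Ikzf2 was negative (adjusted p = 0.0102), unlike Ikzf1. Prefrontal cortex means were 18 CPM for Cbln2, 1932 CPM for Vsnl1, 55.9 CPM for Elavl2, 64.6 CPM for Elavl4 and 93.7 CPM for Hmgcs1, each above every striatal mean of that gene. The same held for Cbln1, Cpne9, Sox6, Lypd6, Lypd6b and Idi1, and not for Cbln4, Cpne6, Cpne8 and Sox1 (cortical means of 7.22 CPM for Cbln1, 2.63 CPM for Cbln4 and 8.12 CPM for Sox1); the part of cortical RNA in these values was not tested.

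Fgf10, a growth factor gene, was ventral-higher in both classes, with 4.33 and 6.22 CPM in D1 and D2 ventral libraries against 1.14 and 0.249 CPM in D1 and D2 dorsal libraries, and an interaction of 1.61 (adjusted p = 1.26e-05); its cortical mean was 5.14 CPM. The gene of the vesicular glutamate transporter Slc17a6 had an interaction of 1.33 (adjusted p = 0.0333), with a mean of 1.08 CPM in D2 dorsal and 3.00 to 4.21 CPM in the other groups, and a cortical mean of 3.16 CPM.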
